A study of Homo sapiens with 4 samples.

Results

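The genes described here encode the proteins of the mitochondrial ribosome. They were chosen by name, as protein-coding genes whose GENCODE symbol is MRPL or MRPS followed by a digit, and they make up 78 of the 58884 genes in each count table. By symbol, 49 belong to the large subunit (MRPL) and 29 to the small subunit (MRPS). RNA was sequenced from HCT116, a human colorectal carcinoma cell line, in 2 control libraries and 2 libraries of cells with RALY knocked down, and all 78 genes had enough counts to be tested. The treatment label has lentivirus for 72 h with a hairpin RNA that targets RALY or one that silences nothing. A source label writes HCT-117 for the second library of each group, whereas all 4 libraries have HCT-116 as their cell line. Other labels call the controls untreated or wild type, so what the controls received is not settled. Neither the hairpin nor the number of hairpins is given in the sources used here, so effects of a single hairpin sequence and of RALY loss cannot be told apart. The labels do not name separate cultures behind the libraries of a group, and the p-values therefore cover the spread between libraries alone, possibly a technical one.

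The mitochondrial ribosome makes the few respiratory chain proteins that are encoded by mitochondrial DNA. Its rRNAs come from the mitochondrial genome, whereas its proteins are encoded in the nucleus, made in the cytosol and imported. The small subunit binds the messenger RNA and reads codons, and the large subunit joins the amino acids and holds the exit tunnel. Many of its proteins have a counterpart in the bacterial ribosome, and the others are found only in mitochondrial ribosomes. RALY, the target of the knockdown, belongs to the hnRNP proteins, which bind nuclear RNA.

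Library totals ran from 13360007 to 16847520 counts. RALY had 144 and 123 CPM (counts per 1000000, on totals scaled by the TMM method) in the controls and 39.6 and 35.1 CPM after knockdown, so 27.9% of its control level remained (log2 fold change of -1.84 with an SE of 0.127, edgeR adjusted p = 6.59e-06). The 8 epithelial markers looked at all had counts, with a summed level of 788 to 879 CPM in the controls and 815 to 878 CPM in the knockdown. The summed levels of the 6 fibroblast, 6 leukocyte and 5 HEK293T markers lay between 32.4 and 133 CPM in every library, and 1 leukocyte marker, ITGAM, and 1 HEK293T marker, NEFH, were called as higher in the knockdown, and 1 epithelial marker, CLDN7, as lower. The highest of the other markers was COL1A1 with a mean of 108 CPM. The part of other cells in the results below was not tested. In bulk RNA, fewer cells of a kind and less RNA per cell cannot be told apart.

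To show the sequence at the starts of genes that fell, stretches before the RefSeq starts of 6 of them are printed here (GRCh38.p14, 5′ to 3′ on the gene's strand). Capitals mark matches on either strand to 3 motifs of factors known to act on nuclear genes for mitochondrial proteins: CCGGAAG for ETS factors such as GABP, GCGCA and GCGC with any base between them for NRF1, and AAGATGGCG for YY1. Each motif was searched on its own, and none contains another.
MRPS34, chr16:1773135-1773164, minus strand: tCTTCCGGtgaCTTCCGGccggaccgctga
MRPL52, chr14:22829787-22829816, plus strand: ccAAGATGGCGgagccgtgattgaaaaccc
MRPL52, chr14:22829821-22829850, plus strand: tcAAGATGGCGacttcctgcttccccgata
MRPL57, chr13:21176574-21176603, plus strand: cctcggctctGCGCAGGCGCagtcctctct
MRPS26, chr20:3045902-3046051, plus strand: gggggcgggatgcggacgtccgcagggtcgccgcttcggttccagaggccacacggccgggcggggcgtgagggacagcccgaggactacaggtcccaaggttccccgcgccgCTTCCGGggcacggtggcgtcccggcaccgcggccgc
MRPS21, chr1:150293711-150293860, plus strand: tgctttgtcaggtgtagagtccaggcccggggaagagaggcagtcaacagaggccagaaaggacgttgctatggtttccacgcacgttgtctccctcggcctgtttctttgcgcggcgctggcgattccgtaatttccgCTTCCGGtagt
MRPS30, chr5:44808797-44808946, plus strand: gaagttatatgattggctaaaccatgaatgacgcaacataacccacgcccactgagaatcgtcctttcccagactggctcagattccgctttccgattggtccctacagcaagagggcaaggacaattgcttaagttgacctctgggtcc
MRPS34 holds 3 ETS matches in its window of 250 bases before to 50 after the start, but so does MRPS22, which did not pass the test (log2 fold change of -0.09). MRPS30 has no match in the stretch shown and 1 YY1 match elsewhere in its window. MRPL24, MRPL37, MRPL42, MRPS14, MRPS24, MRPS33 and MRPS6, which also fell, have no match in the 150 bases before the start and are not printed. The genes printed thus hold matches in these stretches more often than the genes that fell as a whole. Parts of these stretches are exon in GENCODE, of the gene itself or of another: of the 150 bases before the RefSeq start, 150 in MRPS34, 88 in MRPL52, 45 in MRPL57 and 0 in MRPS26, MRPS21 and MRPS30.

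After RALY knockdown, 13 of the 78 mitochondrial ribosomal protein genes fell and none rose (edgeR quasi-likelihood test, Benjamini-Hochberg adjusted p under 0.05 over all genes tested). These were MRPS34, MRPS6, MRPS24, MRPS14, MRPS33, MRPS30, MRPS21 and MRPS26 among the small-subunit symbols and MRPL24, MRPL57, MRPL52, MRPL42 and MRPL37 among the large-subunit symbols. The share that fell, 16.7%, lies close to the background, since 13.1% of all 19686 genes tested and 15.5% of the 14280 protein-coding genes tested fell. The absence of a rise differs more from it, as 12.5% of all genes tested and 13.1% of protein-coding genes rose. At an unadjusted p under 0.05, 19 members passed (24.4%), none of them with a higher level in the knockdown, beside 38.2% of all genes tested and 41.2% of protein-coding genes in either direction. The DESeq2 Wald test gave 9 lower members (11.5%, beside 10.7% of all genes) and 0 higher.

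The sizes were small for most members. Log2 fold changes ran from -0.98 for MRPS34 to 0.44 for MRPL23, with a median of -0.16, beside a median of 0.01 over all genes tested and -0.01 over protein-coding genes. Of the 78 members, 68 (87.2%) had a log2 fold change below 0, against 48.6% of all genes tested. The groups did not overlap, with the knockdown lower, in 43 members (55.1%, beside 31.3% of all genes tested and 33.5% of protein-coding genes). They did not overlap with the knockdown higher in 4 members, MRPL20, MRPL23, MRPS11 and MRPS7 (5.13%, beside 32.3% and 31.7%). None of those 4 passed the test. In either direction 63.6% of all genes tested and 65.3% of protein-coding genes had groups that did not overlap.

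**Figure D1:**
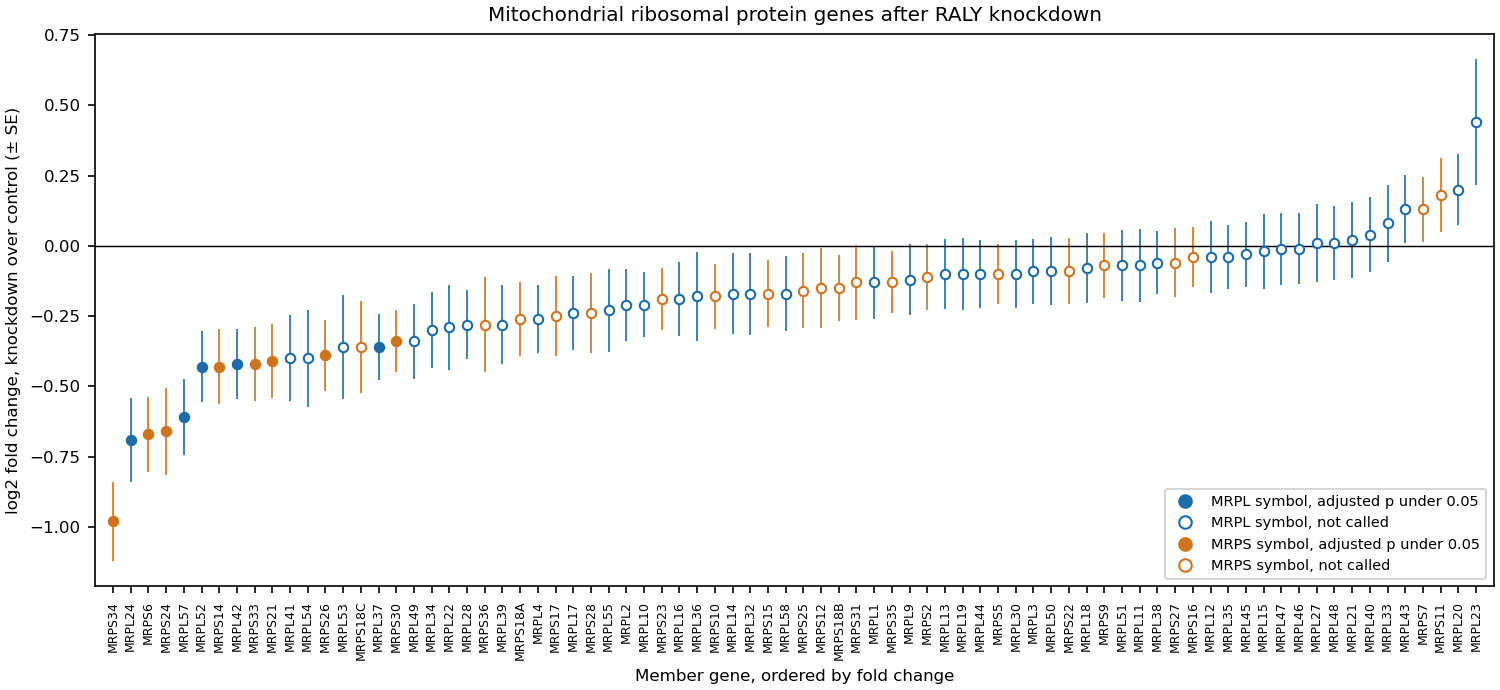
Log2 fold change (knockdown over control, vertical axis, with bars of 1 SE) of each of the 78 members, ordered from the lowest to the highest on the horizontal axis. Filled points passed an adjusted p under 0.05, and all 13 of them lie below 0; MRPS34 at -0.98 stands lowest and MRPL23 at 0.44, not called, stands highest.

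The lean of the family towards lower levels has to be read against the 2 controls. In 77 of the 78 members the level in control 1 was above that in control 2, whereas this held for 49.5% of all genes tested and 52.3% of protein-coding genes. The median difference between the controls was 0.19 on the log2 scale over the members, beside a median of -0.16 between the groups. Summed over the family, the level was 5390 and 4791 CPM in the controls and 4591 and 4416 CPM in the knockdown libraries. The knockdown libraries thus had 95.8% and 92.2% of the level of control 2, while control 2 had 88.9% of the level of control 1. Control 1 also had the lowest total count. Without control 1, 60 of 78 members were below 0, all of them among the 68, with a median of -0.11 and 1 member, MRPS34, was called. Without control 2, 73 were below 0 with a median of -0.27 and 2, MRPS34 and MRPS6, were called. Calls over all genes dropped as well in those fits, to 3.17% lower without control 1 and 2.49% without control 2.

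**Figure D2:**
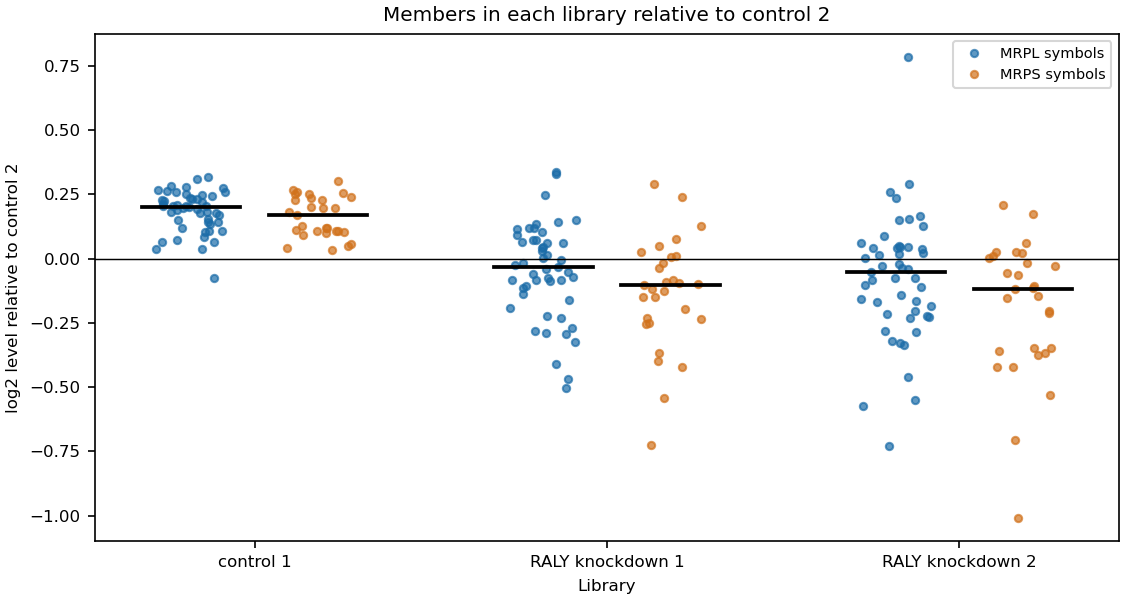
Log2 level of each member in the other 3 libraries relative to control 2 (vertical axis), with 1 point per gene, MRPL symbols in blue, MRPS symbols in orange and black bars at the medians. Control 1 lies above control 2 for nearly every gene, with medians of 0.20 and 0.17, while the knockdown medians lie at -0.03 and -0.05 for MRPL and at -0.10 and -0.12 for MRPS.

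The largest fall in the small subunit was that of MRPS34, a protein found only in mitochondrial ribosomes (ENSG00000074071, chr16:1771890-1773155, GRCh38). It had 1047 and 1161 counts in control libraries and 650 and 497 in knockdown libraries, or 79.4 and 67.2 against 40.6 and 33.4 CPM. Both knockdown libraries lay well under both controls, and 50.5% of the control mean remained. The group levels were 73.3 ± 8.62 and 37.0 ± 5.04 CPM (SD, n = 2 each; log2 fold change of -0.98 with an SE of 0.141, edgeR adjusted p = 0.000543). MRPS34 was called in each of the 12 alternatives run on single genes, the only member for which this held, with log2 fold changes from -1.30 to -0.86.

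MRPS6, the counterpart of a bacterial small-subunit protein, had 64.8 and 54.4 CPM in the controls and 37.3 and 37.7 CPM after knockdown (ENSG00000243927, chr21:34073224-34143034). The knockdown libraries were nearly equal and lay under the lower control (log2 fold change of -0.67 with an SE of 0.134, edgeR adjusted p = 0.00382). Its call was lost without control 1 (edgeR adjusted p = 0.0962). MRPS24, the counterpart of a bacterial protein at the entry site of the messenger RNA, had 44.7 and 39.0 CPM in the controls and 29.1 and 23.9 CPM after knockdown (log2 fold change of -0.66 with an SE of 0.155, edgeR adjusted p = 0.00934). MRPS24 shares 23.2% of its exon bases, mostly with the readthrough gene URGCP-MRPS24, which also fell (log2 fold change -0.64), so the counts of these genes are not separate measurements.

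The other small-subunit symbols fell by less. MRPS14, with a bacterial counterpart, had 43.3 and 42.3 CPM in the controls and 32.1 and 31.6 CPM after knockdown, and MRPS14 shares 13.5% of its exon bases, mostly with CACYBP on the opposite strand. MRPS33, specific to mitochondria, had 47.1 and 44 CPM in the controls and 34.1 CPM in each knockdown library. In these genes the libraries of a group lay close together and the groups stood apart. MRPS21, with a bacterial counterpart, had 64.7 and 55.2 CPM in the controls and 47.0 and 43.4 CPM after knockdown. MRPS26, specific to mitochondria, had 64.0 and 56.9 CPM against 47.8 and 44.4 CPM. In MRPS21 and MRPS26 the controls lay further apart, and no knockdown library reached the lower control. The log2 fold changes of MRPS14, MRPS33, MRPS21 and MRPS26 were -0.43, -0.42, -0.41 and -0.39, with edgeR adjusted p-values of 0.0344, 0.0363, 0.0389 and 0.0392. The DESeq2 Wald test did not call these 4 genes.

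MRPS30 carries a small-subunit symbol, but its protein sits in the large subunit in solved structures of the human mitochondrial ribosome, as does that of MRPS18A. MRPS30 had 129 and 124 CPM in the controls and 104 and 95.6 CPM after knockdown, with no overlap (log2 fold change of -0.34 with an SE of 0.110, edgeR adjusted p = 0.0379). MRPS18A had 60.6 and 51.7 CPM in the controls and 48.5 and 44.9 CPM after knockdown and did not pass the test (log2 fold change of -0.26, edgeR adjusted p = 0.160). MRPS18A shares 47.0% of its exon bases with other genes, so its count is uncertain.

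In the large subunit, MRPL24, the counterpart of a bacterial protein near the exit tunnel, had 64.5 and 53.9 CPM in the controls and 40.6 and 32.5 CPM after knockdown (ENSG00000143314, chr1:156737303-156741590; log2 fold change of -0.69 with an SE of 0.150, edgeR adjusted p = 0.0057). MRPL57, specific to mitochondria, had 50.4 and 45.7 CPM against 32.2 and 30.7 CPM (ENSG00000173141, chr13:21176658-21179084; log2 fold change of -0.61 with an SE of 0.135, edgeR adjusted p = 0.00659). In both genes the groups were clear of each other, and 61.8% and 65.5% of the control means remained. MRPL42, specific to mitochondria and the member with the highest CPM, had 197 and 192 CPM in the controls and 159 and 131 CPM after knockdown (log2 fold change of -0.42 with an SE of 0.125, edgeR adjusted p = 0.0272). Its knockdown libraries differed from each other by more than its controls did. MRPL52, specific to mitochondria, had 58.0 and 54.7 CPM against 43.7 and 39.7 CPM (log2 fold change of -0.43, edgeR adjusted p = 0.026). MRPL37, also specific to mitochondria, had 111 and 96.5 CPM against 84.5 and 77.3 CPM (log2 fold change of -0.36, edgeR adjusted p = 0.0411). MRPL24, MRPL57, MRPL52, MRPL42 and MRPL37 each lost the call when either control was left out.

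**Figure D3:**
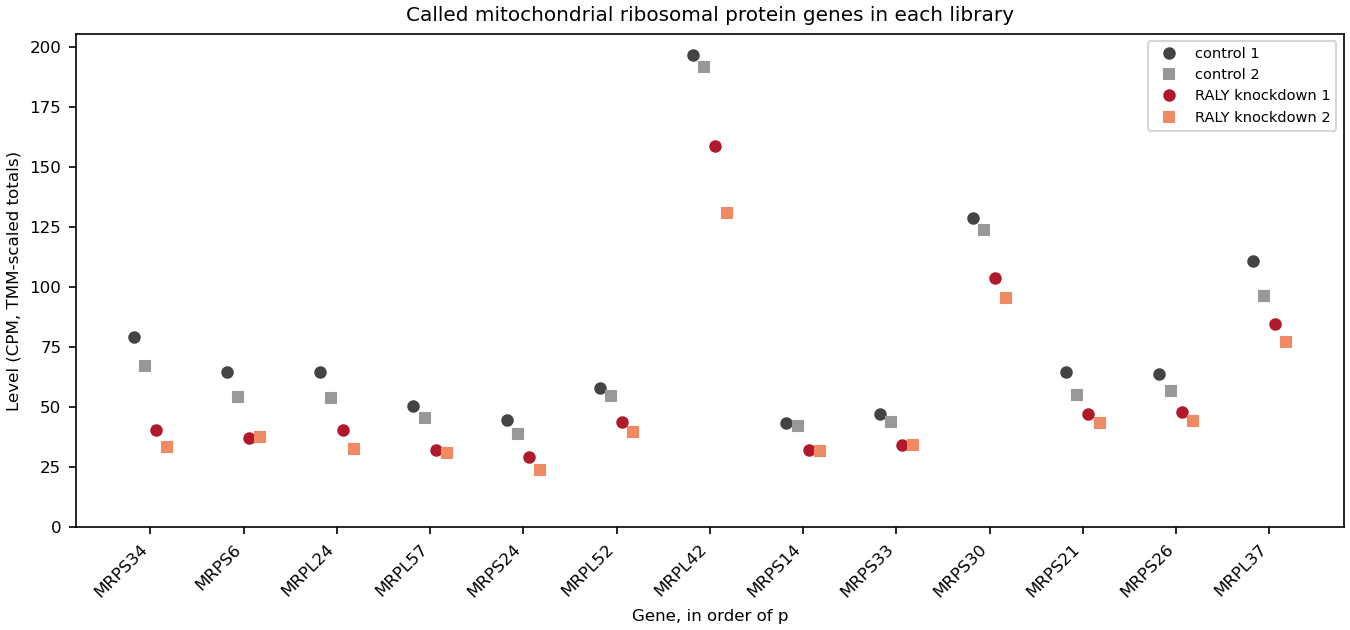
Level in CPM (vertical axis, from 0) of the 13 called members in each of the 4 libraries, with genes in order of p on the horizontal axis. Grey points are the controls and red and orange points the knockdown libraries; in every gene shown both knockdown points lie under both control points, with MRPL42 between 131 and 197 CPM.

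Members that did not pass included several with changes of a similar size. MRPL41, specific to mitochondria, had 36.8 and 31.4 CPM in the controls and 25.8 CPM in each knockdown library (log2 fold change of -0.40, edgeR adjusted p = 0.0721), the closest to the threshold among the members not called. MRPL54 and MRPL53 had log2 fold changes of -0.40 and -0.36 (edgeR adjusted p = 0.108 and 0.168). MRPL53 shares 72.8% of its exon bases with other genes, mostly CCDC142, so its count is uncertain. MRPL23, the member with the lowest mean CPM, had 12.2 and 10.1 CPM in the controls and 12.7 and 17.4 CPM after knockdown (log2 fold change of 0.44 with an SE of 0.225, edgeR adjusted p = 0.177). Knockdown library 2 of MRPL23 stood above the others, and without knockdown replicate 1 the fit called MRPL23 as higher, the only rise called in any alternative.

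The other 3 members whose knockdown libraries both lay above both controls have bacterial counterparts. MRPL20 had 56.4 and 49.0 CPM in the controls and 61.9 and 58.6 CPM after knockdown (log2 fold change of 0.20, edgeR adjusted p = 0.281). MRPL20 shares 15.6% of its exon bases with other genes, of which RN7SL657P (10.6%) was called as higher (log2 fold change 1.06). MRPS11 had 43.1 and 40.0 CPM against 48.9 and 45.1 CPM (log2 fold change of 0.18, edgeR adjusted p = 0.340). MRPS7 had 80.8 and 71.3 CPM against 84.2 and 82.3 CPM (log2 fold change of 0.13, edgeR adjusted p = 0.438). None of these 3 was called in any alternative.

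Among small-subunit symbols that did not pass, MRPS18C, MRPS36 and MRPS17 had log2 fold changes of -0.36, -0.28 and -0.25 (edgeR adjusted p = 0.122, 0.249 and 0.232). MRPS18C shares 40.2% of its exon bases with ABRAXAS1 and MRPS17 22.4% with another annotated gene. MRPS36, now also named KGD4, is known as a component of the oxoglutarate dehydrogenase complex rather than of the ribosome. MRPL12, which forms part of the stalk that binds translation factors and is also known to bind the mitochondrial RNA polymerase, had 80.1 and 64.6 CPM in the controls and 70.1 and 70.5 CPM after knockdown (log2 fold change of -0.04, edgeR adjusted p = 0.859). Its controls lay on either side of the knockdown libraries, and 69.5% of its exon bases are shared with another annotated gene.

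Large and small subunits were compared by counts and medians, without a test, since genes are not replicates. By symbol, 8 of 29 small-subunit genes (27.6%) and 5 of 49 large-subunit genes (10.2%) fell, beside 13.1% of all genes tested. With MRPS30 and MRPS18A placed in the large subunit, the counts were 7 of 27 (25.9%) and 6 of 51 (11.8%). The contrast depends on the test: the DESeq2 Wald test called 4 small-subunit genes (13.8%) and 5 large-subunit genes (10.2%) by symbol. Corrected counts and the replicate block each called 8 in either subunit (27.6% and 16.3%), beside 14.1% and 18% of all genes as lower. The median log2 fold change was -0.18 in the small and -0.12 in the large subunit. The summed level of the large subunit was 1.5 and 1.48 times that of the small subunit in the controls and 1.53 times in each knockdown library. The mean log2 CPM of the large subunit minus that of the small was -0.203 and -0.223 in control libraries and -0.137 and -0.108 in knockdown libraries. The libraries of each group lay closer together on this measure than the groups did, although an exact permutation test of 2 against 2 libraries cannot give a two-sided p below 0.333.

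Counterparts of bacterial ribosomal proteins and proteins specific to mitochondria were set side by side in the same way. Of 45 members with a bacterial counterpart, 5 fell (11.1%, beside 13.1% of all genes tested and 15.5% of protein-coding genes, median log2 fold change -0.13). Of the 33 without one, 8 fell (24.2%, median -0.19). With MRPS30 and MRPS18A counted in the large subunit, 1 of its 30 with a counterpart fell, MRPL24, and 5 of 21 without. In the small subunit 4 of 15 with a counterpart and 3 of 12 without fell, the latter counting MRPS36. Whether these shares differ was not tested.

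Levels differed between members by length-corrected CPM more than the knockdown moved them. Per kilobase of deposited exon length, mean levels ran from 70.7 CPM per kilobase for MRPL12 through 52.4 for MRPS26, 51.5 for MRPL41 and 50.2 for MRPS34 down to 6.72 for MRPL22, 5.34 for MRPS18C and 4.41 for MRPL23. This order depends on the length used. Per kilobase of the canonical transcript, MRPL38, MRPL33, MRPL20 and MRPL27 came first with 84.6 to 77.4 CPM per kilobase, and MRPL23 rose to 19.5. Occupancy, the mean count as a share of 2 counts per base of the canonical transcript, ran from 7.23% to 64.7% over the members (median 34.9%), and counts of the most abundant genes appear to level off below full occupancy. Changes of fuller genes may then be compressed. With counts corrected under that assumption, 16 members fell instead of 13 (20.5%, beside 14.1% of all genes), with MRPL41, MRPL4 and MRPL34 added. With the same correction control 1 still exceeded control 2 in 74 of 78 members, with a median of 0.16 on the log2 scale.

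Across the members, the log2 fold change was only weakly related to the mean level (Spearman's rho 0.27), to occupancy (rho 0.22) and to canonical transcript length (rho 0.01), over 78 genes that share the same 4 libraries. Processed and other pseudogene copies named after a member were found for 36 members. In 1 member, MRPS31, these copies held over 10% of the count of the gene (64.6%), so its count is uncertain. With over 20% of exon bases shared, 1 of 15 members fell (6.67%), MRPS24, and of the other 63 members 12 fell (19%). Of all genes tested 13.1% fell, and of protein-coding genes 15.5%.

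The members lie on 21 chromosomes, and many start next to another gene. Of the 78, 27 (34.6%) have the start of another protein-coding gene on the opposite strand within 1 kb, beside 9.97% of 19869 protein-coding genes. Those 19869 genes were not limited to genes with enough counts to be tested, unlike the members. MRPS11 and MRPL46 are such a pair of members, with starts 320 bp apart, and had log2 fold changes of 0.18 and -0.01. Of the called members, 3 have such a partner. MRPS34 starts 324 bp from EME2, with the canonical GENCODE transcripts overlapping at their starts. In the annotation used for counting, MRPS34 shares 0% of its exon bases with other genes. EME2 had 57.3 and 64.4 CPM in the controls and 79.9 and 62.8 CPM after knockdown (log2 fold change of 0.23, edgeR adjusted p = 0.245). MRPL57 starts 106 bp from SKA3 (log2 fold change of 0.24, edgeR adjusted p = 0.116), while MRPL37 starts 137 bp from CYB5RL (log2 fold change of 0.32, edgeR adjusted p = 0.128). None of these partners was called, and their values lay above 0 while the members fell.

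Promoter windows from 250 bases before to 50 after the start were matched for 70 members in the RefSeq table. MRPL2, MRPL10, MRPL13, MRPL15, MRPL21, MRPL23, MRPL35 and MRPS28 were not matched. The ETS motif CCGGAAG was present in 41.4% of these windows, against 10.7% of all 27305 windows in the table, and the YY1 motif in 18.6% against 1.85%. The NRF1 motif was present in 11.4% against 6.28%, and the TATA box TATAAA in 4.29% against 12.0%. The 27305 windows were not limited to protein-coding genes or to genes with enough counts to be tested, unlike the members. Members that fell and members that did not carried the ETS motif at similar shares, 5 of 13 and 24 of 57, and the median log2 fold change was -0.15 with it and -0.17 without it. YY1 matches were found in 4 of 13 called and 9 of 57 other members. A match is a description of letters and not a bound site.

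Of the genes that work with the mitochondrial ribosome, 5 encode ribosomal proteins without an MRP symbol. Of these 1 fell (20%, beside 13.1% of all genes tested), namely AURKAIP1, a small-subunit protein. AURKAIP1 had 64.7 and 57.7 CPM in the controls and 34.7 and 33.9 CPM after knockdown (log2 fold change of -0.83 with an SE of 0.130, edgeR adjusted p = 0.00086). The others, DAP3, PTCD3 and CHCHD1 of the small and GADD45GIP1 of the large subunit, had log2 fold changes of -0.00, -0.26, -0.14 and -0.33 and did not pass.

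Among 33 assembly factors and GTPases, 6 fell (18.2%) and 2 rose, beside 13.1% and 12.5% of all genes tested. GTPBP6, a recycling and assembly GTPase, fell from 43.1 and 41.3 CPM to 24.9 and 17.1 CPM (edgeR adjusted p = 0.00192). On the log2 scale RPUSD3 fell by 0.73, MTRES1, which acts on stalled ribosomes, by 0.87 and TFB1M, a methyltransferase of the small-subunit rRNA, by 0.54, while FASTKD5 rose by 0.62 and RPUSD4, a pseudouridine synthase of the large-subunit rRNA, rose by 0.41. TFB1M shares 38.7% of its exon bases with other genes, so its count is uncertain. Among 20 translation factors, 4 fell and 2 rose, again near those shares. MTFMT, which formylates the initiator transfer RNA, fell by 0.68, the membrane insertase OXA1L by 0.48, the initiation factor MTIF3 by 0.50 and the recycling factor MRRF by 0.33. MTRF1L, a release factor, rose from 43.1 and 44 CPM to 88.2 and 95.3 CPM (log2 fold change of 1.07 with an SE of 0.116, edgeR adjusted p = 9.26e-05), and HEMK1, a methyltransferase, rose by 0.44. MTRF1L shares 34.6% of its exon bases with other genes, and it kept its call in the 12 alternatives. MRRF (edgeR adjusted p = 0.047) lost its call in 5 of them, and MTIF3, HEMK1 and RPUSD4 in 4 each. These lists held rises as well as falls, with median log2 fold changes of -0.05 and 0.07, and their difference from the members was not tested.

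Among 26 genes of mitochondrial RNA synthesis, processing and decay, 3 fell (11.5%) and 1 rose (3.85%). Over all genes tested, 13.1% fell and 12.5% rose. POLRMT, the mitochondrial RNA polymerase, had 198 and 183 CPM in the controls and 108 and 91.0 CPM after knockdown (log2 fold change of -0.93 with an SE of 0.123, edgeR adjusted p = 0.000323). PTCD1 fell by 0.61 and FASTK by 0.36, and FASTKD3 rose by 0.66; PTCD1 shares 57.2% of its exon bases with other genes. Among the regulators of nuclear mitochondrial genes, NRF1, the transcription factor named after nuclear respiration, had 56.1 and 55.3 CPM in the controls and 42.2 and 37.0 CPM after knockdown (log2 fold change of -0.49 with an SE of 0.130, edgeR adjusted p = 0.0159). The call of NRF1 was lost in 3 of the 12 alternatives. The coactivator gene PPARGC1B rose (log2 fold change of 0.38, edgeR adjusted p = 0.0481), a call lost in 8 of the 12 alternatives. GABPA, GABPB1, YY1, ESRRA and MYC had log2 fold changes of -0.17, 0.17, -0.03, -0.27 and -0.04 and did not pass.

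None of the 15 mitochondrially encoded RNAs, which include both rRNAs of the mitochondrial ribosome, was called by edgeR, and 0 had an unadjusted p under 0.05. The smallest p belonged to MT-ND6 (log2 fold change of -0.17, edgeR adjusted p = 0.577). Their median occupancy was 88.3%, so a change in these RNAs may not be detectable. Of 85 genes with cytosolic ribosomal protein symbols, RPL22 rose by 0.43 and none fell. Their median log2 fold change was 0.13 and their median occupancy 81.9%. The 85 include RPL17-C18orf32, RPL36A-HNRNPH2 and RPS10-NUDT3, readthrough genes that are not ribosomal protein genes of their own. Control 1, which had the lowest total count, was above control 2 in 84 of those 85 genes and in 14 of the 15 mitochondrially encoded RNAs. At such high occupancy CPM may follow the library totals. These sets therefore cannot show what lies behind the same order in the members, which was not tested.

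**Figure D4:**
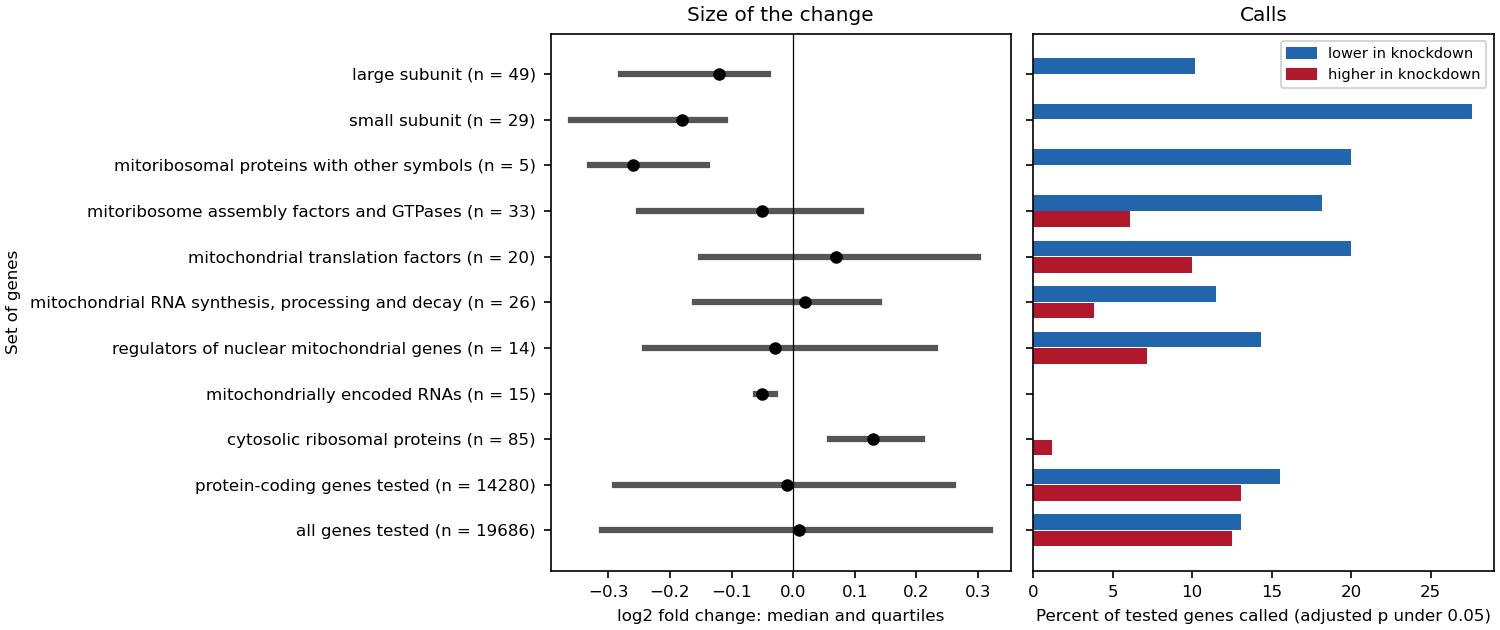
Left, median (point) and quartiles (line) of the log2 fold change of the members by subunit symbol and of the sets around them; right, percent of tested genes called as lower (blue) or higher (red) in the knockdown. The small subunit has the highest share called as lower (27.6%) among the sets shown, and neither subunit has a gene called as higher.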

How the data were processed

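RNA-seq gene counts of 4 HCT116 libraries (2 control, 2 RALY knockdown) were used. Each deposited table gives, per the file headers, a whole count for every gene in the layout of featureCounts. The submitters' processing notes name GRCh38, HISAT2 2.0.4, SAMtools, Subread and featureCounts. How strand and duplicate reads were handled is not stated in the labels or headers. Of 58884 genes, 58472 were found in GENCODE 44, which gave symbols, biotypes and canonical transcripts. Genes were filtered with filterByExpr, leaving 19686, scaled with TMM and tested with the robust quasi-likelihood test of edgeR 4.0.16 (R 4.3.3), with Benjamini-Hochberg adjustment over all genes tested and a threshold of 0.05. SE is the absolute log2 fold change divided by the square root of F. The procedure was run on simulated data with less spread between libraries than these data have, so that run does not show how it performs here. Occupancy sets the mean count against 2 per base of canonical length; corrected counts assume random filling of those positions. A total of 3 counts is 0.178 to 0.225 CPM at these totals.

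Groups and replicate numbers came from the titles. Alternatives were DESeq2 1.42.0 size factors and Wald test, plain totals, other filters, a replicate block, each library left out, a minimum fold of 1.2, corrected counts and subunits by structure. Leaving out members that share over 20% of exon bases was chosen after seeing the data. The members and lists were chosen with earlier results of these data known. Named genes were RALY, every called member, up to 4 uncalled members per subunit with the largest change, the 4 highest and 3 lowest per kilobase, up to 4 called genes per list and direction (otherwise the smallest p), starts within 1 kb of a called member, and members with doubtful counts. The result of 1 gene in the list of regulators is not reported here.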

Additional observations from a re-analysis of the deposited data

How the results depend on the processing

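The number of members that fell was 13 and ranged from 13 to 16 with DESeq2 size factors, plain totals, other filters, corrected counts and the replicate block, and was 9 with the DESeq2 Wald test. Of the named genes, 30 lost their call without control 1 and 28 without control 2. It was 5 against a minimum fold of 1.2 (MRPS34, MRPS6, MRPL24, MRPL57 and MRPS24), 6.41% of members beside 8.15% of all genes. Leaving out 1 library gave 1 to 17 lower members (1 without control 1, 2 without control 2, 17 without knockdown 1, 7 without knockdown 2) and 0 to 1 higher. Those fits take their spread from the remaining pair, and the lone library is assumed to vary like the others. The share of all genes called as lower also differed between those fits, so these counts alone do not show a change particular to the members. The median log2 fold change then ran from -0.22 to -0.08 in the large and from -0.29 to -0.16 in the small subunit. RALY kept its direction and call in the 12 alternatives run on it. MRPL12 ran from -0.20 without control replicate 2 to 0.08 without control replicate 1, beside -0.04. With members sharing over 20% of exon bases left out, 12 of 63 fell (19%, beside 13.1% of all genes tested).

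With the replicate number as a block, 16 members fell and none rose (13 of them as without it), and 3536 lower and 3518 higher genes were called over the whole table. Libraries of the same number correlated at 0.219 in their deviations from the group means, which with 2 pairs does not show that the numbers pair the samples. Every member averaged at least 13.1 CPM, so none was near the limit of counting, but an SE of 0.107 to 0.225 leaves changes of the size of the family's median undetectable gene by gene.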
